A study of Homo sapiens with 6 samples.

Results

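The genes described here are 45 regulators and enzymes of the cell cycle and of DNA replication, from D-type cyclins to mitotic kinases, followed in ribosome footprints of CHL-1 cells, an established melanoma line of human origin. They were listed by symbol and not by a cut on measured values. Earlier results of these data were known when the list was made. For each gene the transcript with the most summed footprint depth over 3 deposited tables was taken. Of the 45 genes, 44 had a transcript in the tables, among 11227 named genes in all, and CDK6 is not analysed here. Level minimums, set at the lower quartile of transcript depth in each table, were passed in all 3 tables by 42 members and by 7075 genes overall. E2F1 passed in the parental and edited tables only, and CCNE1 in the edited table only. With those minimums, 43 members could be compared between the edited and the parental table, and 42 between the treated and the parental table.

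The 3 groups are the parental CHL-1 line without treatment, CHL-1 edited with CRISPR at SNORD50A/B (genes of small nucleolar RNAs, which guide chemical modification of ribosomal RNA), and CHL-1 given 10 mM AZC with 20 µM MG132 for 20 minutes. AZC (L-azetidine-2-carboxylic acid) is a proline analog that is built into new proteins and disturbs their folding, and MG132 blocks the proteasome. In all groups the lysis buffer held cycloheximide, a drug that stops elongating ribosomes. Each group has 2 libraries, of which 1 carries the label that rRNA was removed, yet the deposited values are a single table per group, with no column per library. So no spread between replicates can be given, no p-value is printed, and every difference below is a difference between single tables. The labels name no mock-edited line and do not say whether the edited cells are 1 clone, and the treated cells received both agents together, so the part of either agent cannot be told apart. Footprints count ribosomes on messengers: a higher value can come from more messenger or from more ribosomes on each, and these cannot be told apart here.

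A cell commits to division in G1, when cyclin D with CDK4 or CDK6 phosphorylates the retinoblastoma protein and releases E2F transcription factors. E2F activates genes for S phase, among them cyclin E, the proteins that load the MCM helicase on origins, DNA polymerases and enzymes that make deoxynucleotides. A later set of genes, controlled through CHR elements in their promoters and the DREAM and MuvB complexes, supplies cyclin B, CDK1, the Polo and Aurora kinases and the spindle motors for mitosis. Many of these proteins are destroyed by the proteasome at set points of the cycle, so their synthesis has to be renewed in each round.

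Summed depth, in units of 1000000 bases, was 473.7 in the parental, 586.5 in the edited and 367.3 in the AZC + MG132 table, and the members held 0.671%, 0.694% and 0.659% of it. The median coding coverage of all genes, the percentage of 200 coding bins with any depth, was 90.5%, 69% and 81.5% in that order, so the edited table has more depth but emptier bins; for the members it was 99.8%, 98% and 99.5%. Of 9 melanocyte lineage markers 7 had a transcript, led by SOX10 at 395.7, 352.5 and 322.5 units of normalised depth, whereas TYR and TYRP1 were not analysed here. PMEL and MLANA passed no minimum, and MITF passed it in the edited table only, at 5.97, 9.46 and 3.94. ERBB3 was at 195.4, 175.8 and 171.8, S100B at 29.8, 32.5 and 41.4, and DCT, under the parental minimum, at 4.14, 15.7 and 7.55. The summed level of this list, mostly SOX10 and ERBB3, was 634.4, 588.0 and 551.7. Of 12 epithelial, leukocyte and endothelial markers only KRT18 passed a minimum, at 21.2, 10.8 and 17.5, and PTPRC was listed in the edited table alone, at 2.26.

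Levels are normalised depths: the depth over all 400 bins of a transcript is divided by the total of its table and multiplied by 1000000. Levels depend on transcript length and are compared here only for the same gene between tables. The term past 2-fold marks genes whose log2 ratio reaches 1 or -1, a description of size that tests nothing. Both comparisons use the same parental table and are therefore not independent of each other.

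**Figure D1:**
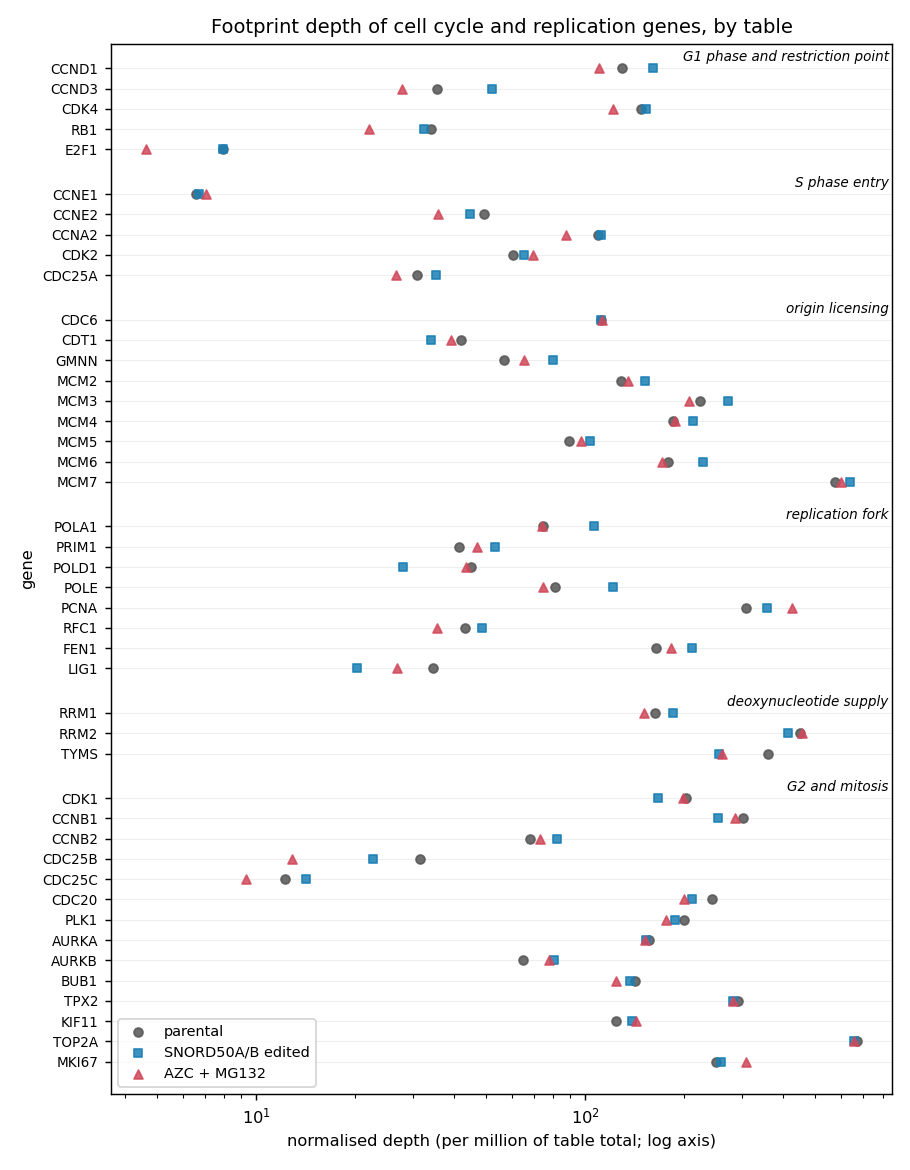
Normalised depth of 44 members (log axis, per 1000000 of the total of each table) in the parental (circles), SNORD50A/B-edited (squares) and AZC + MG132 (triangles) tables, ordered by role. For most genes the 3 marks lie close together; CDC25B, at 31.4, 22.6 and 12.8, has the widest distance.

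Few members lay far from their parental level in either comparison. In the edited line 0 of 43 members were past 2-fold, beside 2.4% of the 7542 genes compared (1.1% higher and 1.3% lower). After AZC + MG132, 1 of 42 members was past 2-fold (CDC25B, lower), beside 3.26% of 7279 genes (0.866% higher and 2.39% lower). Both counts are near the shares over all genes. Of the 43 members compared in the edited line, 37 lay within 0.5 of 0 on the log2 scale, against 79.4% of all genes, and after treatment 40 of 42 did, against 76.2%. The median log2 ratio of the members was 0.12 in the edited line (all genes 0.0041), with 26 of 43 above 0 (all genes 50.4%). After treatment it was -0.05 (all genes -0.05), with 15 of 42 above 0 (all genes 44.7%). That sign turned with the scaling, to 0.0019 when the median of all genes was set to 0.

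As a check within genes, ratios were also computed separately for coding bins 1 to 100 and for the remaining 100. For the edited line 22 of 43 members were higher in both stretches, 12 were lower in both and 9 had opposite signs, against 30.1%, 30.8% and 39.1% of all genes. After treatment 12 of 42 were higher in both, 15 lower in both and 15 opposite, against 28.3%, 34% and 37.7%. The members had fuller coding coverage than most genes (above), and its part in these counts was not tested.

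**Figure D2:**
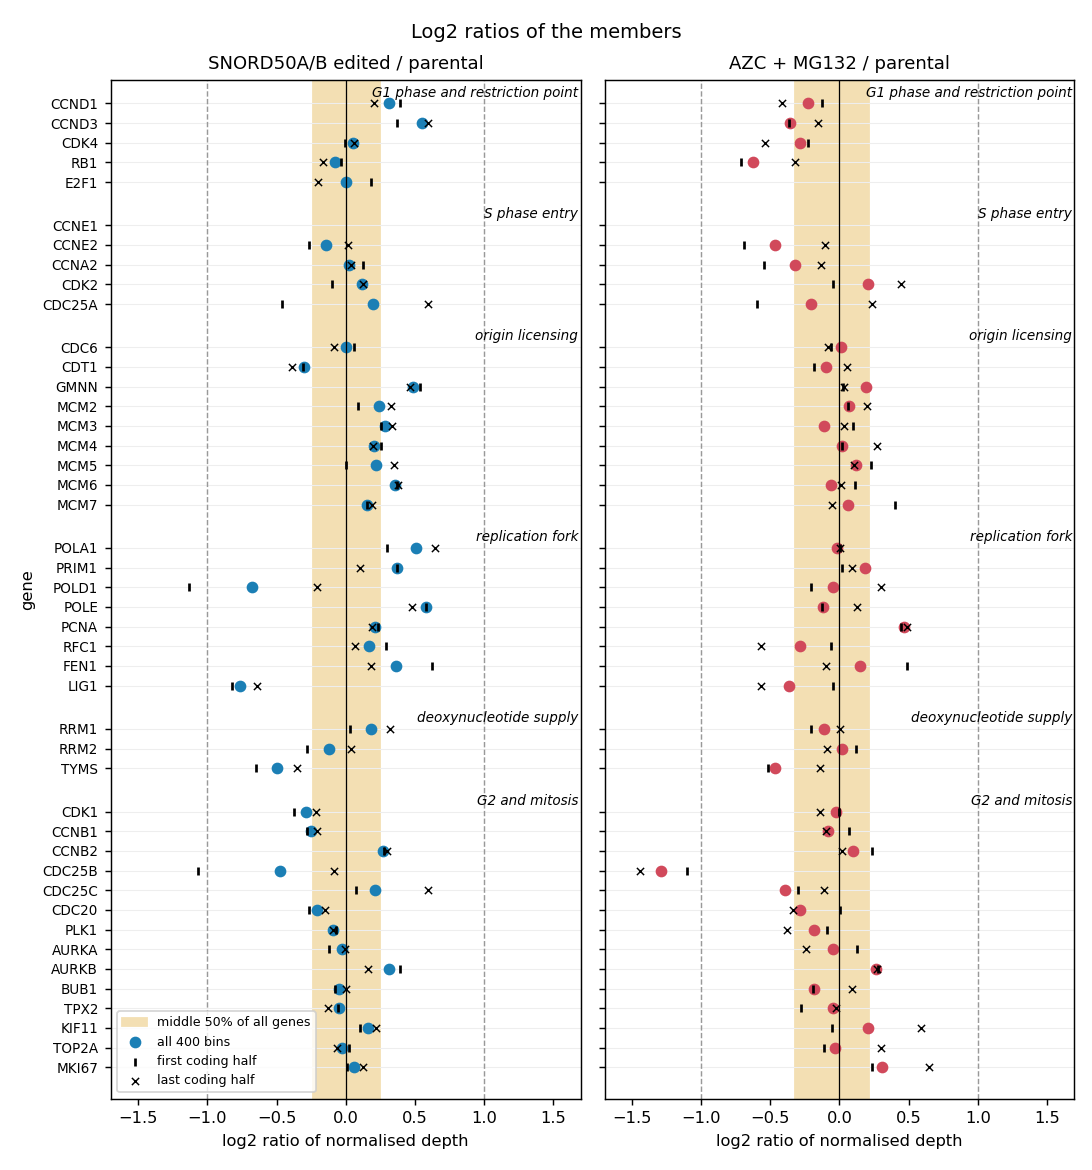
Log2 ratio of normalised depth to the parental table for the edited line (left) and AZC + MG132 (right), from all 400 bins (dots) and from the first (bars) and last (crosses) 100 coding bins; the band holds the middle 50% of all genes and dashed lines mark 2-fold. MCM2 to MCM7 sit right of 0 in the left panel, CDC25B is past -1 in the right panel, and E2F1 (right) and CCNE1 (both) have no value because they were under a minimum.

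After treatment all 4 G1 genes that could be compared were lower than in the parental table, in both stretches of the coding sequence (all genes 34%). Their median log2 ratio was -0.32 (all genes -0.05). CDK4, the kinase that starts the phosphorylation of RB1, stood at 147.8 in the parental, 153.1 in the edited and 121.3 in the treated table, a log2 ratio of 0.05 and of -0.29. CCND1, the cyclin D1 partner of CDK4, was at 128.999, 160.6 and 110.3, highest in the edited and lowest in the treated table (log2 ratios 0.32 and -0.23). CCND3 showed the same order at 35.4, 51.9 and 27.7 (0.55 and -0.35). Footprint depth on CCND1 and CCND3 was thus above the parental table in the edited line and below it after treatment, in both coding stretches. RB1, the retinoblastoma protein, was at 34.05, 32.3 and 22.1, near its parental level in the edited line and 1.54-fold lower after treatment (-0.63). Its coding coverage was 89.5%, 67% and 67%. E2F1 was shallow: its summed depth of 3749 in the parental table lay just inside the minimum of 3187, and its 1701 in the treated table was under the minimum of 2614. Its levels of 7.91, 7.93 and 4.63 give a log2 ratio of 0.0035 in the edited line and none for the treatment.

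Of the 4 genes of S phase entry that could be compared, 3 lay above 0 in the edited line (all genes 50.4%) and 1 after treatment (all genes 44.7%). CCNA2, cyclin A2, which drives S phase with CDK2, stood at 109.2, 111.2 and 87.4, and its log2 ratios were 0.03 and -0.32. CDK2 itself went the other way after treatment, at 60.1, 65.3 and 69.4 (0.12 and 0.21). CCNE2, cyclin E2, was at 49.3, 44.6 and 35.7 (-0.14 and -0.46). CDC25A, the phosphatase that activates CDK2, was at 30.8, 35.3 and 26.7, but its ratios had opposite signs along the coding sequence in both comparisons: -0.46 in the first and 0.60 in the last 100 coding bins of the edited line, and -0.59 and 0.24 after treatment. CCNE1, cyclin E1, had levels of 6.57, 6.69 and 7.01 and a depth of 3112 in the parental table, just under the minimum of 3187. Its ratios are not given. In the shallow genes E2F1 and CCNE1 the value carried over from the preceding transcript, subtracted before any ratio, was 16.9% of the parental coding depth in E2F1 and 27.6% in CCNE1. Other members held such a value too, and in RB1 it was 11.6% of the treated coding depth.

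The helicase genes of origin licensing lay on the same side of the parental table in the edited line. MCM2 to MCM7, the 6 subunits of the replicative helicase, were all higher than in the parental table, at log2 ratios between 0.16 (MCM7) and 0.35 (MCM6). They were above 0 under all 3 scalings and in both stretches of the coding sequence (30.1% of all genes were higher in both). MCM5, however, stood at only 0.0048 in the first 100 coding bins. The sizes are small: MCM7 was at 573.7, 638.8 and 597.5, MCM3 at 223.5, 271.8 and 206.9, and MCM6 at 178.4, 227.9 and 171.3 in the parental, edited and treated tables. MCM2, MCM4 and MCM5 lay at 0.24, 0.21 and 0.22. Like MCM7, they were inside the middle 50% of all genes, which ran from -0.24 to 0.25 in the edited line. MCM3 (0.28) and MCM6 lay above it. After treatment the 6 subunits lay between -0.11 and 0.12, with 4 of 6 above 0 (all genes 44.7%). The count was 5 without the most abundant 1% of transcripts in the total and 6 from coding bins alone. The first of these settings moves all genes alike. With coding bins alone the median of all genes went from -0.05 to -0.02. GMNN, geminin, which binds CDT1 and blocks a second round of loading, was at 56.7, 79.5 and 64.9, higher in both comparisons (0.49 and 0.20). CDT1, the loading factor itself, was the lowest licensing gene in the edited line at 41.9, 34.04 and 39.1 (-0.30 and -0.10). CDC6, which recruits MCM with CDT1, hardly differed, at 111.3, 111.3 and 112.3. Over all 9 licensing genes the median log2 ratio was 0.22 in the edited line (all genes 0.0041), with 7 above 0 (all genes 50.4%). After treatment it was 0.02 (all genes -0.05), with 6 above 0 (all genes 44.7%).

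The promoters of the members were also read for known cell cycle letters. A part of such letters in any footprint difference was not tested. The windows are 300 bases from RefSeq (250 before to 50 after each annotated start, assembly GRCh38.p14), and 38 of the 45 members had at least 1 window. The E2F letters searched were TTTCCCGC, TTTGGCGC, TTTCGCGC and TTTGCCGC on both strands. They occurred in 15 of 38 members (39.5%), against 3.99% of 27305 genes with a window. Those 27305 outnumber the 11227 named genes with footprint values, so they include genes not measured here and are no matched set. All 7 licensing genes with a window held them, as did 4 of 8 fork genes and 1 of 12 genes of G2 and mitosis. The CHR letters searched were TTTGAA and TTCGAA, also on both strands, and these short letters were common: 12 of 38 members (31.6%) and 19.5% of all genes held them. Of the 12 genes of G2 and mitosis with a window, 10 did, against 1 of 7 licensing genes. CCAAT, on both strands, was in 28 of 38 members (73.7%) and 39.7% of all genes, and in all 12 genes of G2 and mitosis. TTCGAA reads the same on both strands, and E2F letters of opposite strands overlap in MCM6. A match describes letters and not a bound site. Members with several windows had more chances to match; counted by window, the E2F letters were in 29.1% of 55 member windows and in 3.31% of 35116.

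The 30-base stretches shown first belong to helicase and licensing genes, and to PCNA and LIG1, a pair of E2F-letter genes on opposite sides of 0 in the edited line. Capitals mark the E2F letters on the strand of the gene:
MCM6 (chr2:135876515-135876544, minus strand): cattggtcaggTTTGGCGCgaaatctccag
MCM3 (chr6:52284898-52284927, minus strand): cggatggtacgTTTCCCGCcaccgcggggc
MCM7 (chr7:100101566-100101595, minus strand): cagctcggaccGCGGGAAAcccggcgcctg
GMNN (chr6:24775322-24775351, plus strand): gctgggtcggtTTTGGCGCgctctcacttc
CDT1 (chr16:88803743-88803772, plus strand): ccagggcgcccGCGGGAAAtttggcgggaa
PCNA (chr20:5126663-5126692, minus strand): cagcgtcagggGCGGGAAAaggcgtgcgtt
LIG1 (chr19:48170440-48170469, minus strand): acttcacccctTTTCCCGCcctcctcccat
The next stretches belong to mitotic genes, with CHR letters in capitals. CDC25B was past 2-fold after treatment. It is shown beside its paralog CDC25C, and beside a cyclin and a kinase that stayed near their parental level after treatment:
CDC25B (chr20:3796260-3796289, plus strand): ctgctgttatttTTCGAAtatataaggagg
CDC25C (chr5:138331817-138331846, minus strand): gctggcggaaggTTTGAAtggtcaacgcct
CCNB2 (chr15:59105105-59105134, plus strand): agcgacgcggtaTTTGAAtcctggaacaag
PLK1 (chr16:23678848-23678877, plus strand): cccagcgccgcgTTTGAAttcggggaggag
Members with the same letters covered a wide range of ratios. The 13 members with E2F letters only had a median log2 ratio of 0.20 in the edited line but ranged from -0.77 (LIG1) to 0.58 (POLE). The 10 with CHR letters only had a median of 0.02, from -0.47 to 0.27, and the 11 compared members with neither had 0.05, from -0.68 to 0.55. After treatment the medians were -0.06, -0.15 and -0.08.

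Of the 6 role groups the replication fork had the widest spread in the edited line. PCNA, the sliding clamp, stood at 306.8, 355.8 and 424.1, which made it the highest member ratio after treatment (0.47) with a log2 ratio of 0.21 in the edited line, and its values from both coding stretches were 0.44 and 0.48 after treatment. FEN1, the nuclease that trims Okazaki fragments, was at 164.04, 211.1 and 182.3 (0.36 and 0.15). POLE, the catalytic subunit of the leading-strand polymerase, was at 80.9, 121.1 and 74.3, the highest member ratio of the edited line (0.58). POLA1, of the polymerase that starts new strands, was at 74.5, 106.2 and 73.7 (0.51 and -0.01), and its primase partner PRIM1 at 41.2, 53.3 and 46.7 (0.37 and 0.18). RFC1, of the complex that loads PCNA, was at 43.2, 48.5 and 35.5 (0.17 and -0.28).

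Against these 6 higher genes, 2 fork genes were lower in the edited line. LIG1, the ligase that seals Okazaki fragments, was at 34.5, 20.3 and 26.8, with the lowest ratio of all members in the edited line (-0.77), and it was lower in both coding stretches (-0.82 and -0.64). POLD1, the catalytic subunit of the lagging-strand polymerase, was at 44.8, 27.99 and 43.4 (-0.68). The POLD1 difference lay mainly in the first 100 coding bins (-1.14), past 2-fold there, against -0.21 in the last 100. Coding coverage of LIG1 was 87.5% in the parental and 44% in the edited table, and that of POLD1 90% and 53.5%. Median coverage over all genes was lower in the edited table too (above), and its part in both differences was not tested.

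Among the 3 genes of deoxynucleotide supply, TYMS alone was lower by more than 0.4 in both comparisons. TYMS, thymidylate synthase, stood at 359.6, 254.2 and 260.2, that is, 1.41-fold lower in the edited line (-0.50) and 1.38-fold lower after treatment (-0.47), and it was lower in both coding stretches of both tables. The ribonucleotide reductase subunits stayed closer: RRM2, the cell cycle-regulated small subunit, was at 450.0, 413.2 and 456.2 (-0.12 and 0.02), and RRM1, the large subunit, at 162.9, 184.7 and 150.9 (0.18 and -0.11). The annotation names 4 pseudogenes of PCNA, 3 of RRM2, 2 each of TYMS, CCND3 and AURKA, and 1 each of CDK4, FEN1, CCNB2, CDC20, AURKB, BUB1 and MKI67. Reads of such copies could have been placed on either, so the values of these 12 members carry that uncertainty.

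CDC25B, a phosphatase that activates CDK1 at the entry to mitosis, was the member furthest from its parental level. Its normalised depth was 31.4 in the parental, 22.6 in the edited and 12.8 in the treated table. After treatment it was 2.45-fold lower (log2 ratio -1.29), at -1.11 in the first and -1.44 in the last 100 coding bins. Its edited value was -0.47, with -1.07 in the first 100 and -0.09 in the last 100. CDC25B was among the shallower members, with a summed depth of 14857, 13236 and 4700, and coding coverage of 89%, 53.5% and 67%. The value carried over from the preceding transcript was 16.6% of its treated coding depth before subtraction. With a minimum 4 times higher it is not compared. CDC25C, which shares this role, was at 12.2, 14.2 and 9.3 (0.22 and -0.39), from only 42% of coding bins in the treated table. The carried value was 18.8%, 11.1% and 25.2% of CDC25C coding depth in the parental, edited and treated tables.

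The other mitotic genes stayed near their parental level. Over the 14 genes of G2 and mitosis the median was -0.04 in the edited line, with 5 above 0 (all genes 50.4%). After treatment it was -0.05, with 4 above 0 (all genes 44.7%). That count of 4 became 8 when the median of all genes was set to 0. TOP2A, the topoisomerase that untangles sister chromatids, was at 668.9, 657.3 and 655.1 (-0.03 in both comparisons). CCNB1, cyclin B1, was at 301.2, 253.3 and 284.4 (-0.25 and -0.08), and its partner CDK1 at 202.2, 165.8 and 198.6 (-0.29 and -0.03), whereas CCNB2, cyclin B2, was at 68.1, 82.3 and 72.8 (0.27 and 0.10). The Aurora kinases also split: AURKA, of the spindle poles, was at 156.3, 153.4 and 151.6, and AURKB, of the centromere, at 64.5, 80.2 and 77.4 (0.31 and 0.26). CDC20, the activator of the anaphase-promoting complex, was at 243.3, 210.8 and 199.8 (-0.21 and -0.28). PLK1, the Polo kinase, BUB1, of the spindle checkpoint, and TPX2, which activates AURKA, all lay between -0.19 and -0.05 in both comparisons. KIF11, the motor that separates spindle poles, was at 123.8, 138.5 and 142.9 (0.16 and 0.21). MKI67, a proliferation marker that coats mitotic chromosomes, was at 248.7, 258.98 and 308.3 (0.06 and 0.31).

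After treatment the members differed from the parental table in where footprints lay. To measure the start, the mean depth of coding bins 1 to 20 was divided by the mean over all 200, and this 5′ share is 1 where the start is as deep as the rest. Over the 42 members passing all minimums the median 5′ share was 0.94 in the parental, 0.92 in the edited and 1.57 in the treated table, against 0.93, 0.96 and 1.42 over all genes. It was above 1 in 16, 19 and 36 of the 42 members, and in 3128, 3329 and 5074 of all 7075 genes. The 5′ shift, the log2 ratio of 5′ shares to the parental table, had a median of 0.71 after treatment (all genes 0.59). It was above 0 in 37 of 42 members (all genes 78.9%) and at least 1 in 16 (all genes 26.6%). For the edited line the median was -0.03 (all genes 0.05), with 21 of 43 above 0 (all genes 53.2%) and 2 at 1 or more (all genes 12.1%).

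**Figure D3:**
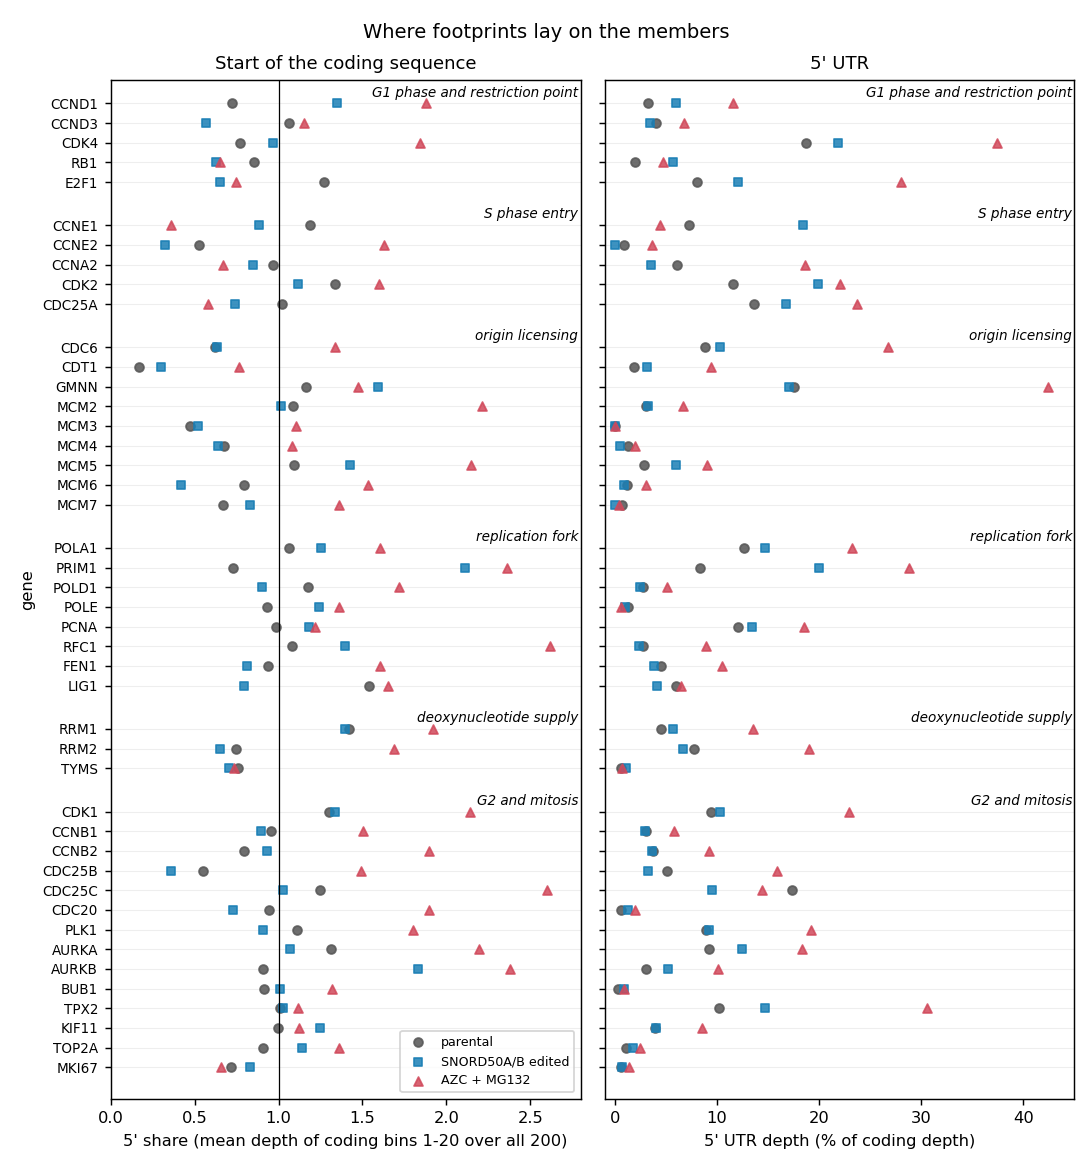
Left, 5′ share of the 44 members (mean depth of coding bins 1 to 20 over the mean of all 200; the line marks 1); right, 5′ UTR depth as a percentage of coding depth, in the parental (circles), edited (squares) and AZC + MG132 (triangles) tables. Triangles lie right of the circles for most genes in both panels. CDT1 goes from 0.17 to 0.77 in 5′ share. The GMNN transcript used goes from 17.5% to 42.4% in 5′ UTR depth, and these percentages differ between GMNN transcripts.

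After treatment all 9 licensing genes had a 5′ shift above 0 (all genes 78.9%), between 0.34 (GMNN) and 2.15 (CDT1). Their median was 1.02 (all genes 0.59). All 8 fork genes also lay above 0, with a median of 0.57, near that of all genes. The median 5′ share of the licensing genes was 0.68, 0.64 and 1.36 in the parental, edited and treated tables (all genes 0.93, 0.96 and 1.42). Their larger shift thus started from a lower parental share, and their treated share was not above that of all genes. The 5′ share of CDT1 was 0.17 in the parental, 0.30 in the edited and 0.77 in the treated table, so its start, thinly covered in the parental table, remained below its gene mean. PRIM1 followed with 0.73, 2.11 and 2.36, and it had the largest shifts of the fork genes in both comparisons (1.53 and 1.69). AURKB, at 0.91, 1.83 and 2.38, was the other member with a shift of at least 1 in the edited line (1.01). The negative end after treatment was CDC25A, at 1.02, 0.74 and 0.58 (shift -0.81), and CCNA2, at 0.96, 0.85 and 0.67 (-0.52). RB1 (-0.38), MKI67 (-0.13) and TYMS (-0.04) were the remaining members without a positive shift. The most negative shifts of the edited line were those of LIG1 and E2F1 (both -0.94) and MCM6 (-0.93), whose 5′ share was 0.79, 0.42 and 1.54.

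Along the coding sequence, the treated table sloped for the members as it did for all genes. In 10 windows of 20 coding bins, each divided by the gene mean, the members averaged 1.55 in the first window, 1.11 in the second, 0.80 in the ninth and 0.9999 in the last. All genes averaged 1.51, 1.16, 0.82 and 0.98 there. In the parental table the first window of the members was at 0.93 and the last at 1.15 (all genes 1.02 and 1.14). In the edited table they were at 0.97 and 1.23 (all genes 1.10 and 1.15).

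**Figure D4:**
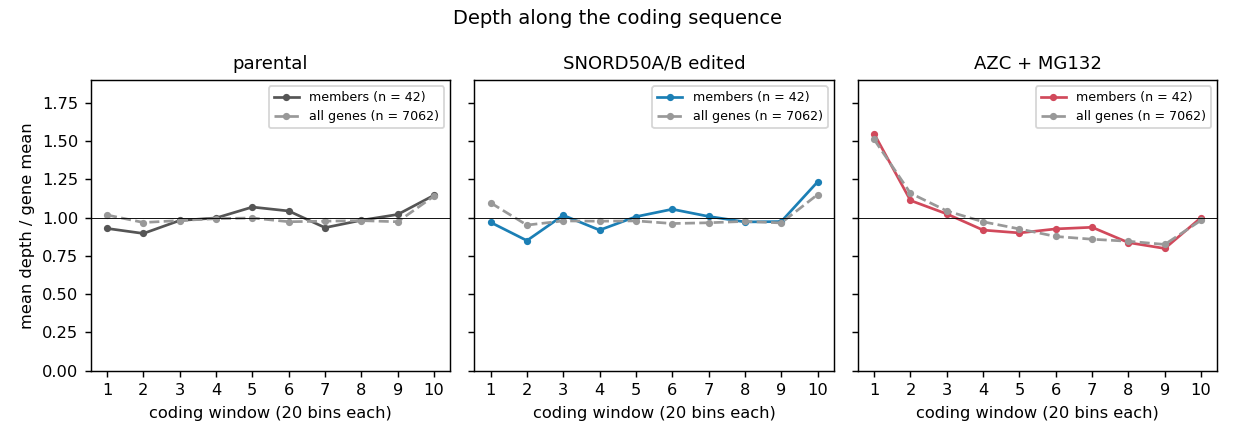
Mean depth in 10 windows of 20 coding bins, divided by the gene mean, for 42 members (solid) and 7062 genes with coding depth in all 3 tables (dashed). The parental and edited lines stay between 0.85 and 1.23, and the AZC + MG132 line starts at 1.55 for the members and 1.51 for all genes.

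Depth in the 5′ UTR, where upstream initiation and initiating ribosomes leave footprints, was also higher relative to coding depth after treatment. The median over the 42 members was 3.87% of coding depth in the parental, 3.93% in the edited and 9.35% in the treated table, against 5.88%, 6.39% and 11.6% over all genes. Of 41 members with 5′ UTR depth in both tables, 38 had a higher ratio after treatment (all such genes 84%), and in 26 it was at least 2-fold higher (all such genes 44.3%). The median log2 change was 1.23 (all such genes 0.86), and 1.22 over all 42 members with the pseudocount in empty UTRs. In the edited line 25 of 41 were higher (all such genes 58.2%), 5 of them at least 2-fold (all such genes 17.7%), with a median of 0.16 (all such genes 0.14).

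Among the transcripts used, GMNN and CDK4 had the highest 5′ UTR percentages in the parental and treated tables. In the edited table CDK4 and PRIM1 (20.03%) did. Both rankings depend on UTR lengths and on the choice of transcript. GMNN had 17.5%, 17.1% and 42.4%, and CDK4 18.7%, 21.9% and 37.4%, so both were near their parental value in the edited line and about 2-fold above it after treatment. The largest change after treatment was in CDT1, at 1.88%, 3.20% and 9.47% (log2 change 2.33). CCNE2 followed at 0.886% and 3.61% (2.02), while its 5′ UTR had no depth in the edited table. TPX2 had 10.2%, 14.8% and 30.5%, and CDC6 8.82%, 10.3% and 26.7%. The 3 members with a lower ratio after treatment were POLE, at 1.28% and 0.601% (-1.08), MCM7, at 0.678% and 0.407% (-0.74), and CDC25C, at 17.3% and 14.4% (-0.26). In the edited line RB1 (1.996% to 5.69%, 1.51) and BUB1 (0.352% to 0.939%, 1.41) had the largest positive changes, and MCM7 (0.678% to 0.0681%, -3.31) and MCM4 (1.31% to 0.523%, -1.33) the largest negative ones. Most of these negative cases rest on UTRs with under 2% of coding depth. The same holds in the parental table for the large positive changes of CDT1, CCNE2, RB1 and BUB1. The choice of transcript matters as well. The other listed transcript of MCM7 had 32.2%, 32.1% and 52.99%. GMNN has 4 listed transcripts, and the one used had the highest GMNN percentage in every table. Another GMNN transcript had 2.94%, 5.07% and 6.87%. MCM3 had no 5′ UTR depth in any table.

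Some members carried a landmark, a deepest coding bin at the same place in every table. This held within 1 bin in all 3 tables for 7 of 42 members (all genes 8.85%). Taken in pairs, 14 of 42 members matched in this way between parental and edited (all genes 17.6%), 15 between parental and treated (all genes 18.4%) and 13 between edited and treated (all genes 16.8%). The part of the fuller coding coverage of the members (above) in these counts was not tested. In TPX2 the deepest bin was coding bin 38, with 2.58%, 2.61% and 4.32% of coding depth in the parental, edited and treated tables. TOP2A was deepest in bin 1, with 1.60%, 3.19% and 3.23%, and GMNN in bin 5, with 1.35%, 1.72% and 1.81%. CCNB2 was deepest at 45.3% of the length of its coding sequence, BUB1 at 65.8%, and CCND3 and CDC25A close to the stop codon, at 98.8% and 99.3%. Other members changed their deepest position: that of CDT1 lay at 61.8%, 95.3% and 0.75%, and that of CDC25B at 34.8%, 52.8% and 32.3%. Over 200 coding bins the profile of a member in the parental table correlated with that in the edited table at a median Pearson r of 0.46 (all genes 0.30), and with that in the treated table at 0.49 (all genes 0.32). These r values describe bins of single tables, where neighbouring bins share reads and deeper genes have smoother profiles.

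**Figure D5:**
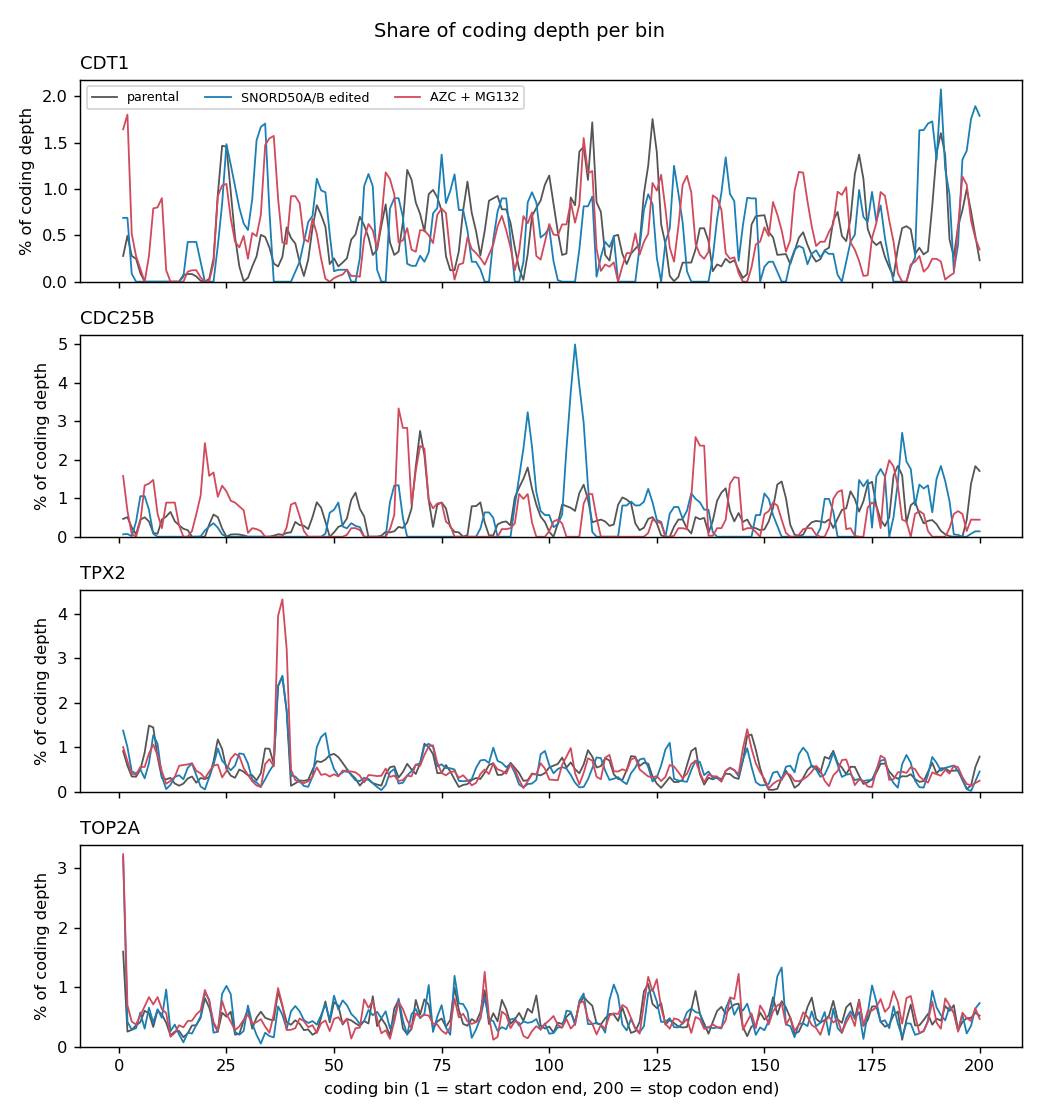
Share of coding depth (%) per coding bin, from the start codon (bin 1) to the stop codon (bin 200), for CDT1, CDC25B, TPX2 and TOP2A in the parental, edited and AZC + MG132 tables. TPX2 keeps a peak at bin 38 and TOP2A at bin 1 in all 3 tables, while the peaks of CDT1 and CDC25B are at different bins in each table.

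Among further genes of the same pathways 1 was past 2-fold, beside 2.4% of all genes in the edited line and 3.26% after treatment, and counts above 0 below stand beside 50.4% and 44.7% of all genes. Of 48 other replication genes 46 could be compared in each case, and 0 were past 2-fold in either direction. Their median was 0.16 in the edited line, with 32 above 0, and -0.05 after treatment, with 20 above 0. Of 34 other regulators of the G1 to S step 25 were compared in the edited line, with 0 past 2-fold, and 23 after treatment, with 1 past 2-fold. That gene was TFDP1, the dimer partner of E2F proteins, at 22.03, 19.01 and 8.57 (-1.36 after treatment). The median of these regulators was 0.11 in the edited line, with 18 of 25 above 0, and 0.06 after treatment, with 12 of 23 above 0, while the 4 G1 members compared were all below 0. All 71 other mitotic genes were compared and 0 were past 2-fold, with a median of -0.08 in the edited line (29 above 0) and -0.05 after treatment (28 above 0).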

How the data were processed

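Ribosome footprints of 6 CHL-1 libraries were deposited as 3 tables, 1 per condition. The submitters' processing notes name Bowtie2, TopHat2 and hg19, with no versions. The pooling of libraries, the treatment of multiply placed reads and the use of strand are not given in the sources used here. Tables were tied to groups by their names, and the labels of the edit were taken as given.

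The deposited values are log2(x + 1), with x the summed depth in each of 400 bins per transcript (100 for the 5′ UTR, 200 coding, 100 for the 3′ UTR, a reading from the values), and summary entries were left out. In coding bins the authors' values also held the deposited value of the preceding transcript. This carried value was subtracted. It made up 4.37%, 3.42% and 5.31% of coding depth in the parental, edited and treated tables. Depth counts bases, so the number of fragments is unknown and no counting interval was computed. Level minimums were 3187, 3697 and 2614.

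Ratios used a pseudocount of 0.5 on summed depth, and ratios of UTR to coding depth the same on both. All genes were computed together, with Python 3.11.15, numpy 2.4.6 and pandas 2.3.3, and the steps were tested on simulated data. Names and promoter windows came from RefSeq (GRCh38.p14), names only for the hg19 tables.

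The members and gene lists were chosen with earlier results of these data known. Named genes were the members past 2-fold, the 2 with the deepest coding depth per role group, the ends of 5′ shift and 5′ UTR change, members under a minimum, and, for other lists, genes past 2-fold; further members were named for their role. Depth per coding base was planned for the choice by role but not computed, because coding lengths were not available here. Alternatives covered scaling, minimums, pseudocounts, bins, carried values and transcripts.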

Additional observations from a re-analysis of the deposited data

How the results depend on the processing

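No paired analysis was possible because the tables hold no column per library and so no replicate numbers; for the same reason no library could be left out. Of 840 values of single members under the alternatives, 837 were counted as unchanged. For a member past 2-fold this meant keeping its direction and its side of 2-fold. For any other member it meant moving little and staying under 2-fold, whatever the sign. AURKA after treatment counted as unchanged although it went from -0.04 to 0.12 in the first 100 coding bins. Most members lay near 0, so the count does not show that directions were kept. From the first 100 coding bins alone, POLD1 (-1.14) and CDC25B (-1.07) were past 2-fold in the edited line, which makes the count 2 instead of 0, and CDC25A turned to -0.46. The median 5′ shift in the edited line turned to 0.0727 with the first 10 coding bins and to 0.0314 with a minimum 4 times higher. The median log2 ratio after treatment turned to 0.0019 when scaled to the median of all genes and to 0.0191 without the most abundant 1% of transcripts in the total. The median 5′ shift after treatment was 0.855 with the first 10 and 0.54 with the first 40 coding bins, and the median 5′ UTR change was 1.34 without the 10 bins before the start codon. With a minimum 4 times higher 0 of 36 members were past 2-fold after treatment, because CDC25B was no longer compared. The cause of the other changes was not tested. Over all genes, 2.4% were past 2-fold in the edited line, but 0.835% with the higher minimum, 7.38% with none and 8.43% from the first 100 coding bins; after treatment 3.26% became 1.32%, 6.74% and 8.50%. Levels per coding base, with and without both ends, were not run.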
